A study of Mus musculus with 3 samples.

Results

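The genes described here are 34 imprinted genes of the mouse, chosen as a list of symbols and matched by gene identifier to GENCODE M21, out of 52636 genes counted in each library. All 34 were found. The samples are 3 RNA-seq libraries of normal thymus of the C57BL/6 strain, with both Cic alleles floxed (flox/flox), after tamoxifen. They are the littermate controls of a study of T cell lymphomas lacking Cic, the gene of the repressor capicua, and the lymphomas are not analysed here. The labels used here name no Cre driver, age or sex for them, and no animal for each library, so the p-values below rest on the spread among the libraries alone, and that may be technical. The libraries are called thymus 1, 2 and 3 after their replicate numbers.

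Imprinted genes are transcribed mainly or only from the maternal or the paternal copy, some of them in certain tissues alone, according to DNA methylation laid down in egg or sperm and kept through later cell divisions. Many lie in shared domains, where a differentially methylated control region and a long noncoding RNA hold the neighbouring genes silent on the same chromosome. Several of them control growth before birth, and many are turned down after birth in most tissues. Read counts of inbred mice carry no information on the parent of origin, so what follows gives levels, strand and spread between thymi, and the allele named for a gene is background.

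Levels are given as CPM, the read count scaled to library size with TMM factors, with the SD over the 3 libraries. The libraries held 30414788, 28587087 and 25408442 reads on the transcribed strand of genes in thymus 1, 2 and 3. A count of 3 reads, taken here as the limit of detection in 1 library, equalled 0.0986, 0.102 and 0.122 CPM. The label thymus fitted the data, as all 10 thymocyte markers looked at exceeded 10 CPM in every library, led by Rag1 at 4192, 3881 and 4152 CPM, the recombinase gene of developing lymphocytes. Blood differed between the libraries, with the 6 erythroid markers summing to 1025, 47.1 and 224 CPM, and 5 of them were among the 10 genes called variable between thymi over all genes. In whole thymus, fewer cells of a type and less RNA per cell cannot be told apart.

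The imprinted genes covered the whole range between silent and abundant. Of the 34 genes, 20 (58.8%) reached 1 CPM in every library, 11 (32.4%) stayed below 1 CPM in every library, and Slc22a18, Ndn and Mest lay on both sides of that level. Over all genes 26.9% reached 1 CPM in every library and 71.3% stayed below it in every library. Of the 27 protein-coding imprinted genes 59.3% reached 1 CPM in every library, against 58.4% of all protein-coding genes. Below it in every library stayed 29.6% and 39.2%. At 10 CPM or more in every library stood 9 imprinted genes (26.5%): Gnas, Ube3a, H13, Igf2r, Impact, Kcnq1ot1, Airn, Trappc9 and Zrsr1. The share was 18.2% over all genes. Over protein-coding genes it was 25.9% for the imprinted ones and 42.3% for all. The median over the 34 imprinted genes was 2.15 CPM, against 0.0245 CPM over all 52636 genes, and over protein-coding genes it was 2.37 CPM for the imprinted ones and 4.48 CPM for all. The direction thus depends on the genes set beside them. Summed over the 34 genes the level was 1234, 1234 and 1244 CPM in thymus 1, 2 and 3, and Gnas, Ube3a and H13 held 74.6%, 74.9% and 75.2% of it.

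**Figure D1:**
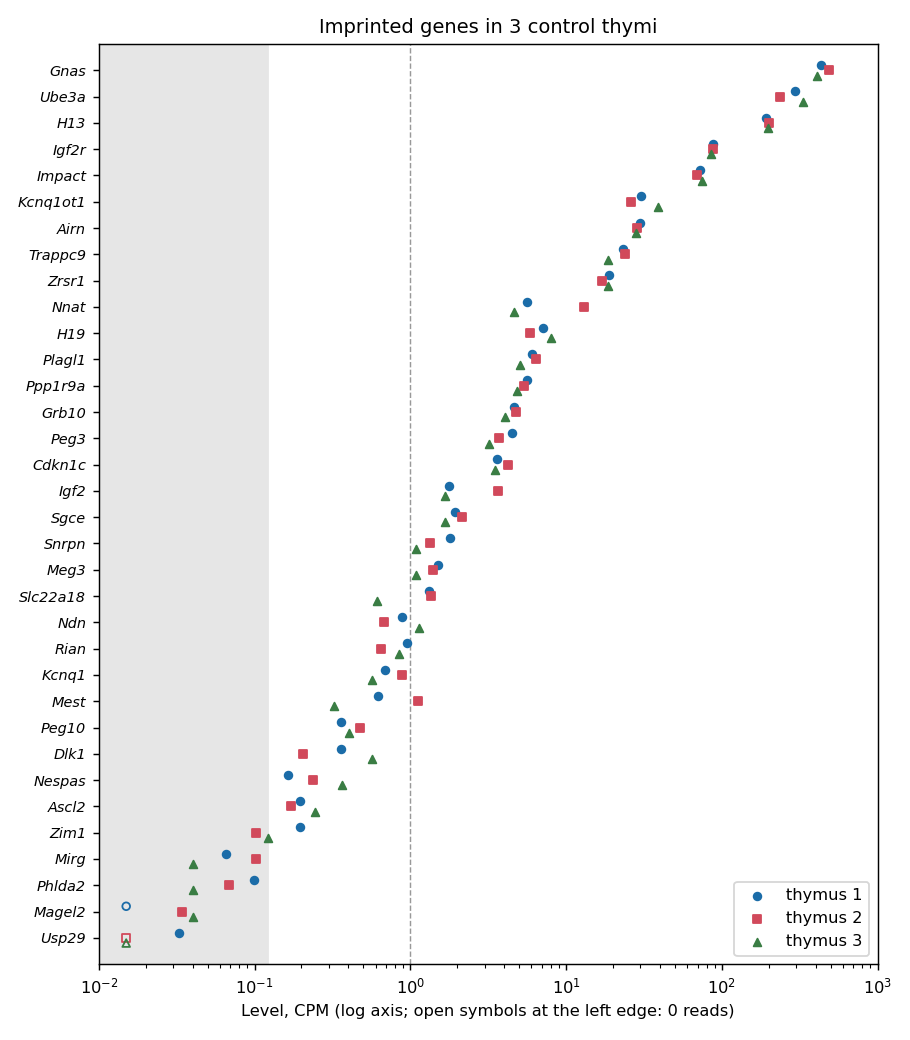
Level of each imprinted gene in CPM on a log axis, genes in order of mean level from top to bottom, with a symbol for each thymus. The dashed line marks 1 CPM, the grey band the highest of the 3-read limits (0.122 CPM), and open symbols at the left edge a count of 0. The 9 genes at the top exceed 10 CPM in each thymus, and all symbols of Mirg, Phlda2, Magel2 and Usp29 lie within the band.

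Promoter windows of 300 bases were taken from RefSeq (GRCm38.p6), which had 40 windows for 26 of the 34 genes. Those of the genes whose results are described below are printed in the 5′ to 3′ direction of the gene, with CpG dinucleotides, the substrate of imprint methylation, in capitals. The Peg3 window is shown because it holds the start region of an oppositely directed pair, and the Airn and Kcnq1ot1 windows because these noncoding RNAs had the highest CPM of the 7. The Nnat and Mest windows are shown because, among imprinted genes with reads in every library, these had the highest ratios of highest to lowest thymus.
Peg3 window, chr7:6730370-6730669 (-): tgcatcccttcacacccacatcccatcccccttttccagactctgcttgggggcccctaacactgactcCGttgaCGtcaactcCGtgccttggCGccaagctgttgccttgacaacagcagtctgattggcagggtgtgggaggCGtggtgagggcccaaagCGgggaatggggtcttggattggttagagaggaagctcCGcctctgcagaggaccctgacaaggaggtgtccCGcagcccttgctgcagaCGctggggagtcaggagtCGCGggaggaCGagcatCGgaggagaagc
Airn window, chr17:12741061-12741360 (+): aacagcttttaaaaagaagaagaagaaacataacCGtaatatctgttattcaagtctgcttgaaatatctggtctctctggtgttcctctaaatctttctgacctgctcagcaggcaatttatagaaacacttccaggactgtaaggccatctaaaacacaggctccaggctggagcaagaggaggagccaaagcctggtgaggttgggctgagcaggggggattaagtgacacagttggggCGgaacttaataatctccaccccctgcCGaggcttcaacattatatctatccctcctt
Kcnq1ot1 window, chr7:143296498-143296797 (-): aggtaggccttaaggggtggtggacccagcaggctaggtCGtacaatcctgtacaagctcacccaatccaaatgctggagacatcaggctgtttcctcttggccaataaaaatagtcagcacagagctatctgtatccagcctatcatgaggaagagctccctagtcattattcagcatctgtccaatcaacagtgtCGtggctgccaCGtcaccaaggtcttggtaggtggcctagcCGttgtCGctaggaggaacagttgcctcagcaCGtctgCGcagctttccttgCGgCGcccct
Nnat window, chr2:157559828-157560127 (+): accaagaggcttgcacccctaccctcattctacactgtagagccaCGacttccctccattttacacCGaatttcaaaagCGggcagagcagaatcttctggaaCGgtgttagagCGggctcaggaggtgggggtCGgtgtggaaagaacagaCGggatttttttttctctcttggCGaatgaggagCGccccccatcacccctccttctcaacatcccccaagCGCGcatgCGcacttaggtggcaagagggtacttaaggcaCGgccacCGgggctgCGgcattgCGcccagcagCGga
Mest window, chr6:30737800-30738099 (+): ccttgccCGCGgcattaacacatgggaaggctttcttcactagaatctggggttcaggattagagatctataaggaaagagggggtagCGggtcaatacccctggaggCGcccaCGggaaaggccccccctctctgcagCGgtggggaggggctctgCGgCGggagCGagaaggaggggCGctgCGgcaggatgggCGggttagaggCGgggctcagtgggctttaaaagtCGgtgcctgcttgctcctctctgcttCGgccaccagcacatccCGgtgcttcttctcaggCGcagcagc

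The windows differed in CpG content. Airn had 3 CpG dinucleotides, Kcnq1ot1 9, Peg3 13, and Nnat and Mest 17 each, at observed over expected ratios of 0.192, 0.422, 0.463, 0.69 and 0.59. The median over the 40 windows of imprinted genes was 13 CpG dinucleotides and a ratio of 0.59, against 7 and 0.38 over 32841 windows of all genes. Windows of 1 gene can overlap, as do those of Mest, so they are not independent. Among the genes above 10 CPM that had a window, the highest ratio per gene was 0.91 for Igf2r, 0.903 for Gnas, 0.842 for Ube3a and 0.836 for H13, but 0.475 for Zrsr1 beside the low values of Kcnq1ot1 and Airn. Genes near or under the limit of detection had ratios of 0.819 for Phlda2, 0.717 for Zim1, 0.584 for Usp29, 0.513 for Magel2 and 0.507 for Mirg. The letters TGCCGC, the core bound by the imprint-keeping zinc finger protein ZFP57 when methylated, occurred on either strand in 9 of the 40 windows (22.5%), among them those of Nnat, Mest and Plagl1, against 11.6% of all windows. Of the 9, 2 were overlapping windows of Mest. The letters contain a CpG, and windows of imprinted genes held more of these, so the shares do not show an excess beyond CpG content.

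The most abundant imprinted gene was Gnas (chromosome 2, 174284320 to 174346744, plus strand, GRCm38), which encodes the stimulatory G protein alpha subunit and, from other promoters, further transcripts expressed from the maternal or the paternal copy. It had 431, 488 and 407 CPM in thymus 1, 2 and 3, a mean of 442 ± 41.9 (SD, n = 3). The highest library was thymus 2 and the lowest thymus 3, 1.20 times apart. The counts sum all transcripts of the gene. Nespas, the antisense RNA of the same domain, had 5, 7 and 9 reads, or 0.256 ± 0.102 CPM.

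Ube3a and H13 followed. Ube3a, a ubiquitin ligase gene that is imprinted in neurons and expressed from both copies elsewhere, had 297, 235 and 332 CPM, a mean of 288 ± 48.8. Thymus 2 was the lowest and thymus 3 the highest, 1.41 times apart. H13, which encodes signal peptide peptidase, had 193, 200.2 and 197.5 CPM, a mean of 197 ± 3.39. The highest thymus was 1.035 times the lowest for H13, so the 3 thymi were nearly alike.

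The Igf2r domain on chromosome 17 was active on both strands. Igf2r, the maternally expressed receptor that removes IGF2 from the cell surface, had 87.8, 87.8 and 85.2 CPM, a mean of 86.9 ± 1.496. Airn, the paternally expressed noncoding RNA that starts inside Igf2r and silences that copy, had 30.01, 28.5 and 28.2 CPM, a mean of 28.9 ± 0.963. In CPM Airn stood at 0.342, 0.325 and 0.331 times Igf2r. Per kilobase of exon, a scale that takes the annotated length of each gene into account, it stood at 0.885, 0.841 and 0.856 times Igf2r. That length joins the exons of all annotated transcripts, not only of those expressed. Ranks and ratios per kilobase, here and below, therefore depend on the annotation. The ratio, which has the same relative spread on both scales, hardly varied between thymi. The exon models of Airn and Igf2r share no base. The Airn model spans spliced forms with 3597 bases of exon, while the gene spans 118826 bases. Reads wholly within its introns are not in the gene counts, so these values give no level for unspliced Airn RNA.

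In CPM, the Kcnq1ot1 domain on chromosome 7 was led by its noncoding RNA. Kcnq1ot1, the paternally expressed antisense RNA that starts within Kcnq1, had 30.1, 26.01 and 38.9 CPM, a mean of 31.7 ± 6.59. It was lowest in thymus 2 and highest in thymus 3. Kcnq1, a potassium channel gene, had 21, 26 and 14 reads, or 0.715 ± 0.161 CPM, below 1 CPM in each thymus. Cdkn1c, the maternally expressed cell cycle inhibitor p57, had 3.58, 4.26 and 3.49 CPM, a mean of 3.78 ± 0.422. Slc22a18, a transporter gene, had 1.31, 1.36 and 0.609 CPM, with thymus 3 the lowest. Ascl2, a transcription factor gene of trophoblast and other stem cells, had 6, 5 and 6 reads, and Phlda2, a gene that limits placental growth, had 3, 2 and 1, at or under the limit.

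Gene length changed this order. Kcnq1ot1 is annotated as a single exon of 93092 bases, and per kilobase it stood at 0.340 ± 0.0707 CPM, rank 18 of 34, against rank 6 in CPM. Cdkn1c stood at 1.85 ± 0.207 CPM per kilobase, so Kcnq1ot1 was 8.56 ± 2.53 times Cdkn1c in CPM but 0.187 ± 0.0553 times per kilobase. Against Kcnq1 it was 47.2 ± 19.8 times in CPM and 2.07 ± 0.871 times per kilobase. Gnas led on both scales, at 39.5 ± 3.75 CPM per kilobase, followed per kilobase by H13 at 22.2 ± 0.382, Impact at 14.1 ± 0.571 and Ube3a at 14.0 ± 2.37. The difference between Impact and Ube3a lay within the spread between thymi.

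**Figure D2:**
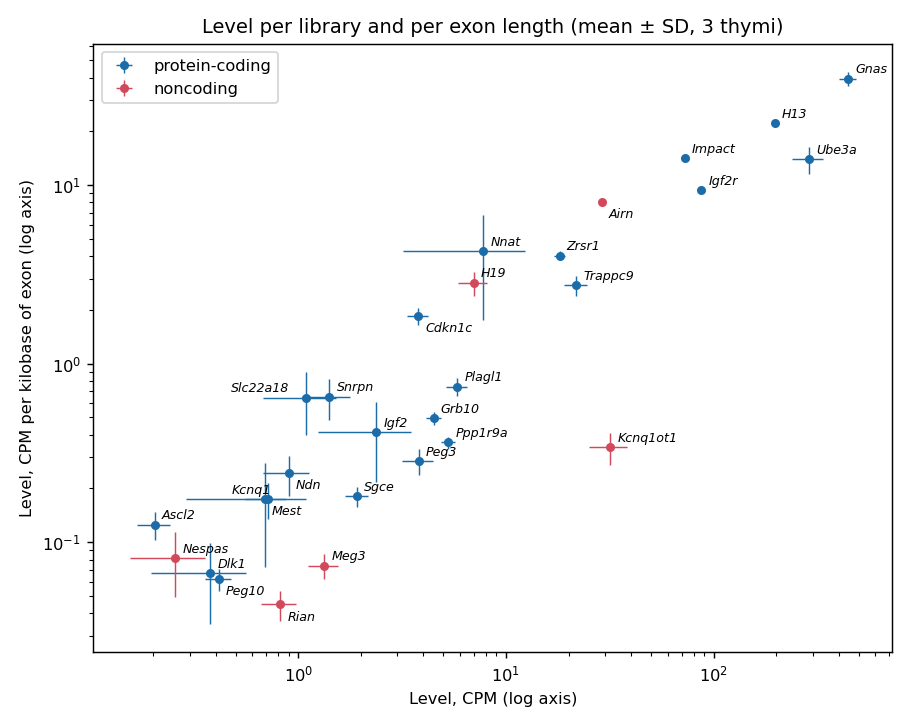
Mean level per kilobase of exon against mean level in CPM, both on log axes, for imprinted genes of at least 0.2 CPM, with bars of 1 SD over 3 thymi, cut at the lower side where they would reach 0. Protein-coding genes and noncoding RNAs have different colours, and Kcnq1ot1 lies far below protein-coding genes of like CPM.

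The genes outside the domains above and below included Impact, Trappc9 and Zrsr1. Impact, a paternally expressed regulator of translation in mouse, had 73.0, 69.2 and 74.9 CPM, a mean of 72.4 ± 2.93. Trappc9, a vesicle trafficking gene imprinted in brain, had 23.1, 23.8 and 18.6 CPM, with thymus 3 the lowest. Zrsr1, a paternally expressed retrogene for a splicing factor, had 18.9, 16.9 and 18.5 CPM, a mean of 18.1 ± 1.05. Its X-linked relative Zrsr2 stood at 57.4 ± 1.92 CPM, which per kilobase was 1.98 ± 0.0554 times Zrsr1. Zrsr1 shared no 50-base stretch with transcripts of another gene, so reads of the pair could be told apart.

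Plagl1, Grb10 and Ppp1r9a were lower. Plagl1, a zinc finger regulator that acts on other imprinted genes, stood at 5.82 ± 0.673 CPM. Grb10, a maternally expressed adaptor that restrains insulin receptor signalling, stood at 4.49 ± 0.375 CPM. Ppp1r9a, which encodes the actin-binding protein neurabin, stood at 5.27 ± 0.403 CPM. In each of these genes the highest thymus was less than 1.26 times the lowest.

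The fetal growth genes H19 and Igf2 were both detected. H19, the maternally expressed noncoding RNA that carries miR-675, had 7.13, 5.83 and 7.99 CPM, a mean of 6.99 ± 1.09, and was lowest in thymus 2. Igf2, the paternally expressed growth factor gene that shares enhancers with H19, had 1.77, 3.68 and 1.66 CPM, a mean of 2.37 ± 1.13, and was highest in thymus 2. Their ratio, H19 over Igf2, was 4.02, 1.58 and 4.80 in CPM and 9.35, 3.68 and 11.2 per kilobase. In GENCODE M21 a readthrough gene, Gm49394, covers 62.83% of the Igf2 exon bases, but it is absent from the counted identifiers and so could not have taken reads from Igf2.

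The Dlk1-Meg3 domain on chromosome 12 was low, and of its listed genes Meg3 alone reached 1 CPM in every library. Meg3, the maternally expressed noncoding RNA, led it with 46, 41 and 27 reads, or 1.34 ± 0.215 CPM. Rian, the host of small nucleolar RNAs, had 29, 19 and 21 reads. Mirg, a host of microRNAs, had 2, 3 and 1 reads, at or under the limit in every library. Dlk1, the paternally expressed membrane protein of progenitor cells, had 11, 6 and 14 reads, or 0.378 ± 0.182 CPM.

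The Peg3 domain and the Snrpn-Ube3a domain each ranged from above 1 CPM in every library down to the limit of detection or under it. Peg3, a paternally expressed zinc finger gene, had 136, 109 and 79 reads, or 3.80 ± 0.636 CPM. Usp29, which starts 146 bases away and is transcribed in the other direction, had 1, 0 and 0 reads, under the limit in all 3 libraries. The promoter windows of this pair share 263 of 300 bases. Zim1, a maternally expressed zinc finger gene of the domain, had 6, 3 and 3 reads.

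A second oppositely directed pair was more even. Sgce, the epsilon-sarcoglycan gene, had 1.94, 2.15 and 1.66 CPM, and Peg10, a gene derived from a retrotransposon, had 0.362, 0.477 and 0.406 CPM, with 98 bases between their starts. Sgce was 2.92 ± 0.406 times Peg10 per kilobase. Both are expressed from the paternal copy.

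Snrpn, which encodes the spliceosome protein SmN, had 55, 39 and 27 reads, or 1.41 ± 0.363 CPM. Its relative Snrpb, which encodes SmB, stood at 190.2 ± 2.97 CPM, and per kilobase at 153 ± 36.1 times Snrpn. Of the 50-base stretches of Snrpn, 21.7% occur in other transcripts, mainly of the overlapping Gm38393, which had 19, 20 and 15 reads of its own, so the level of Snrpn is uncertain. Ndn, a gene of the MAGE family, had 27, 20 and 28 reads, or 0.902 ± 0.227 CPM, and its relative Magel2 had 0, 1 and 1. Ube3a, at the other end of the domain, was 22.5 ± 8.01 times Snrpn per kilobase.

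Of the 17 genes known as paternally expressed in at least some tissue, 10 reached 1 CPM in every library, as did 9 of the 16 known as maternally expressed in at least some tissue. The 16 include Ube3a and Trappc9, whose imprinting is known from neurons and brain, so these counts say nothing of the copy used in thymus. Of the 7 noncoding RNAs 4 reached 1 CPM in every library, and of the 27 protein-coding genes 16.

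Strand decided several of these values, because imprinted domains hold overlapping genes. The Gnas count was 13108, 14327 and 10029 on its own strand, but 539, 458 and 381 in the column that ignores strand, or 4.11%, 3.20% and 3.80%. Gm20721, an annotated gene that overlaps 1469 exon bases of Gnas on the other strand, had 24, 17 and 10 reads on its own strand and 12580, 13874 and 9653 on the opposite one. Reads in an overlap are ambiguous when strand is ignored and are then dropped. The same held in smaller measure for Ube3a, whose unstranded count was 66.0% of its own-strand count, for Cdkn1c at 66.2%, Meg3 at 83.3%, Zrsr1 at 84.8%, H13 at 87.7% and H19 at 88.9%, all summed over the 3 thymi. Of the 27 imprinted genes with at least 30 own-strand reads, 17 had unstranded counts within 2% of the own-strand count. Opposite Ube3a lie the noncoding Snhg14, at 1.64, 1.67 and 1.26 CPM on its own strand, and 9330162G02Rik, at 2.27, 1.67 and 2.72 CPM, and at Snhg14 2098, 1579 and 1968 reads fell on the strand of Ube3a.

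Reads from the opposite strand were few at most imprinted genes. Over all genes they made up 3.37%, 3.40% and 3.44% of the reads in both stranded columns. Among the same 27 imprinted genes the share was below 1% at 21 and above 5% at Mest, Kcnq1 and Nnat. Mest, a paternally expressed hydrolase gene, had 19, 33 and 8 own-strand reads against 68, 80 and 67 on the opposite strand, a share of 78.2% (95% interval 68.0 to 86.3, exact binomial), 70.8% (61.5 to 79.0) and 89.3% (80.1 to 95.3). Copg2, a coat protein gene on the other strand that covers 23.12% of the Mest exon bases, had 56.9, 55.5 and 48.5 CPM. Nnat, which lies within Blcap on the other strand, had 36, 50 and 41 opposite-strand reads, a share of 17.3%, 11.5% and 26.3%. Kcnq1 had 5, 3 and 6 opposite-strand reads, and its exons share 121 bases with Kcnq1ot1. Blcap stood at 22.8, 23.5 and 20.0 CPM. Intervals cover counting error only.

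**Figure D3:**
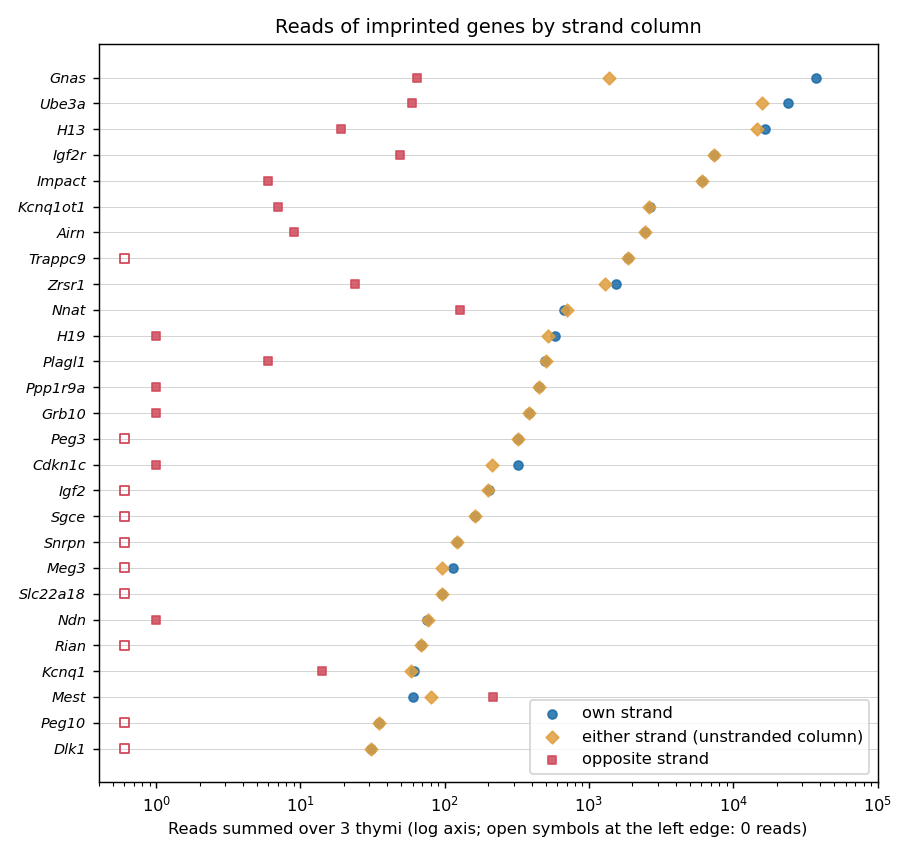
Reads summed over the 3 thymi on the own strand, in the unstranded column and on the opposite strand, on a log axis, for the 27 imprinted genes with at least 30 own-strand reads, in order of that count. Open symbols at the left edge mark 0 reads. The unstranded symbol of Gnas lies far to the left of its own-strand symbol, and at Mest the opposite strand exceeds the own strand.

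The design holds no second condition, so the test that could be made asks whether a gene varied between thymi more than genes of like abundance. Of the 34 genes 25 had enough counts. By edgeR's quasi-likelihood test 0 of them were called at a Benjamini-Hochberg adjusted p of 0.05, where 0.0604% of all 16548 genes were called. A gene that misses this threshold is not thereby shown to be steady. At an unadjusted p under 0.05 stood 4 of the 25 (16%), namely Nnat, Kcnq1ot1, Igf2 and Ube3a, against 4.42% of all genes. The negative binomial goodness of fit (edgeR) called Nnat, as did the DESeq2 dispersion check, where the shares of all genes were 0.737% and 0.489%.

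Whether counts varied more than reads drawn at random would was asked with a Poisson goodness of fit in edgeR. It called 8 of the 25 genes (32%), against 43.4% of all genes: Gnas, Ube3a, Kcnq1ot1, Trappc9, Nnat, H19, Igf2 and Slc22a18. The call for H19 had an adjusted p of 0.0234 and was lost without thymus 2 (adjusted p = 0.454) or thymus 3 (0.152). That for Slc22a18 (adjusted p = 0.0242) and that for Trappc9 were lost without thymus 3 (0.940 and 0.782), and those for Nnat and Igf2 without thymus 2 (0.247 and 0.873), all by the same edgeR test. H13, Igf2r, Airn, Impact and Zrsr1, in contrast, are abundant and did not pass this test with all 3 libraries, although H13 (adjusted p = 0.0012) and Igf2r (0.0266) passed it in edgeR when libraries were scaled by their totals, and Impact (0.0239) without thymus 1. Their coefficients of variation were 1.72%, 1.72%, 3.33%, 4.04% and 5.79%, where the genes tested had a median of 9.06%. These genes were picked by the outcome of the Poisson test, and counting error is smaller at high counts. Low values thus follow in part from the choice and do not show unusual steadiness.

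**Figure D4:**
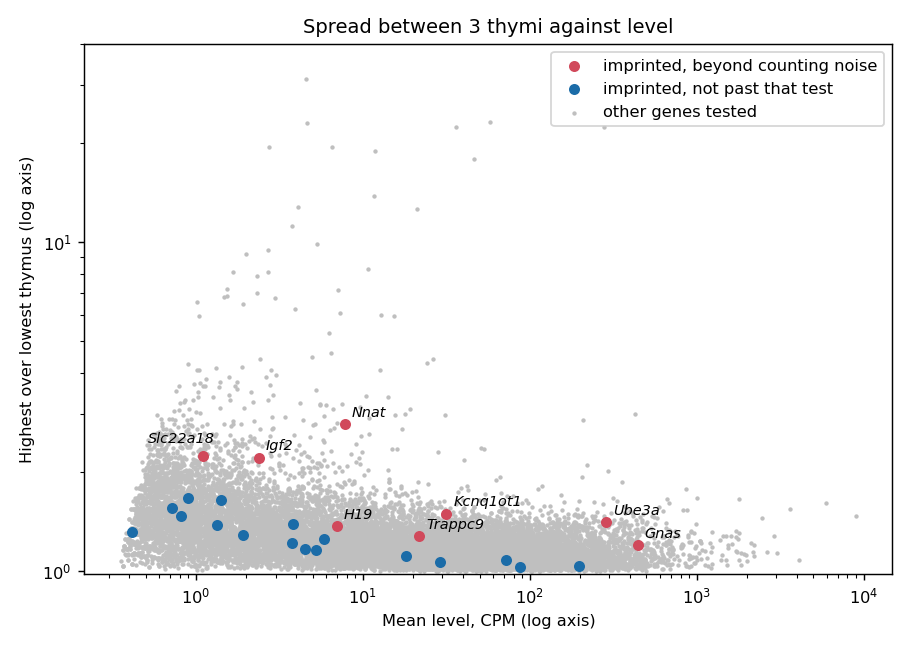
Ratio of the highest to the lowest thymus against mean level, both on log axes, for the 25 imprinted genes tested and for the other genes tested. Imprinted genes past the Poisson test are named. Nnat, with a ratio of 2.80, lies above most genes of like level, and H13 and Igf2r lie near 1.

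Nnat differed most between thymi among the 25 imprinted genes tested. Nnat encodes neuronatin, a small membrane protein of brain, pancreas and fat, expressed from the paternal copy. It had 172, 383 and 115 reads, or 5.65, 13.1 and 4.67 CPM, a mean of 7.79 ± 4.59, with thymus 2 above the others. The adjusted p was 0.646 by the edgeR quasi-likelihood test, 0.00172 by its negative binomial goodness of fit and 3.54e-30 by its Poisson goodness of fit. Without thymus 3 the quasi-likelihood test called Nnat (adjusted p = 4.28e-06), and without thymus 2 it did not, so the call depends on the libraries used. Opposite-strand reads at Nnat, 36, 50 and 41, differed less. These counts are not scaled to library size, which was smallest in thymus 3.

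Igf2 and Mest shared the high value in thymus 2. The pair was set beside Nnat after their values were seen. Igf2 had 54, 108 and 41 reads (Poisson goodness of fit in edgeR, adjusted p = 3.07e-06), with the highest thymus 2.21 times the lowest. Mest had 19, 33 and 8 reads, or 0.624, 1.13 and 0.325 CPM. It had too few reads for the main test, and with no filter its adjusted p was 0.404 by the quasi-likelihood test and 0.00885 by the Poisson test, both in edgeR.

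Markers of fat were also highest in thymus 2. Of 7 adipocyte markers 6 were highest there, among them Fabp4, a fatty acid binding protein gene, at 73.5, 108 and 94.1 CPM, Car3, a carbonic anhydrase gene, at 68.6, 93.9 and 55.7 CPM, and Adipoq, the adiponectin gene, at 18.8, 27.2 and 19.5 CPM. Summed over the list the level was 205, 300 and 211 CPM, and none of the markers was at 0. The median deviation of the 7 markers from their means was −0.28, 0.35 and −0.14 on the log2 scale. Over all genes tested, 38.0% were highest in thymus 2. The 9 mesenchyme markers did not share this, with 1 of 9 highest in thymus 2 and sums of 195, 167 and 204 CPM. Dcn, the highest of them, had 107.7, 79.1 and 108.2 CPM, and the median deviations of the list were 0.01, 0.01 and 0.13. The 7 endothelium markers summed to 120, 132 and 108 CPM, and 3 of 7 were highest in thymus 2. Their median deviations were 0.0, −0.01 and −0.15. The 8 markers of nerve and Schwann cells summed to 16.8, 20.4 and 17.2 CPM, and 5 of 8 were highest in thymus 2. For these the median deviations were −0.14, 0.19 and −0.04. Of the 8 thymic epithelium markers 5 were highest in thymus 2, with sums of 2046, 2075 and 2207 CPM and median deviations of −0.03, 0.08 and −0.1 on the log2 scale. Highest in thymus 3 were 2, and 1 in thymus 1. The 2 were the most abundant of the list, Prss16 at 887, 866 and 965 CPM and Ccl25 at 647, 648 and 756 CPM. Krt5, a keratin gene, at 130, 146 and 106 CPM, Aire, a regulator of self-antigen expression, at 26.1, 32.1 and 22.9 CPM, and Foxn1, the master regulator of this epithelium, at 18.2, 22.8 and 15.8 CPM had the order of Nnat, and were picked out after their values were seen. Of the 10 thymocyte markers 7 were highest in thymus 2, with median deviations of −0.03, 0.04 and −0.01. The part of these cell types in the levels of Nnat, Igf2 and Mest was not tested.

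**Figure D5:**
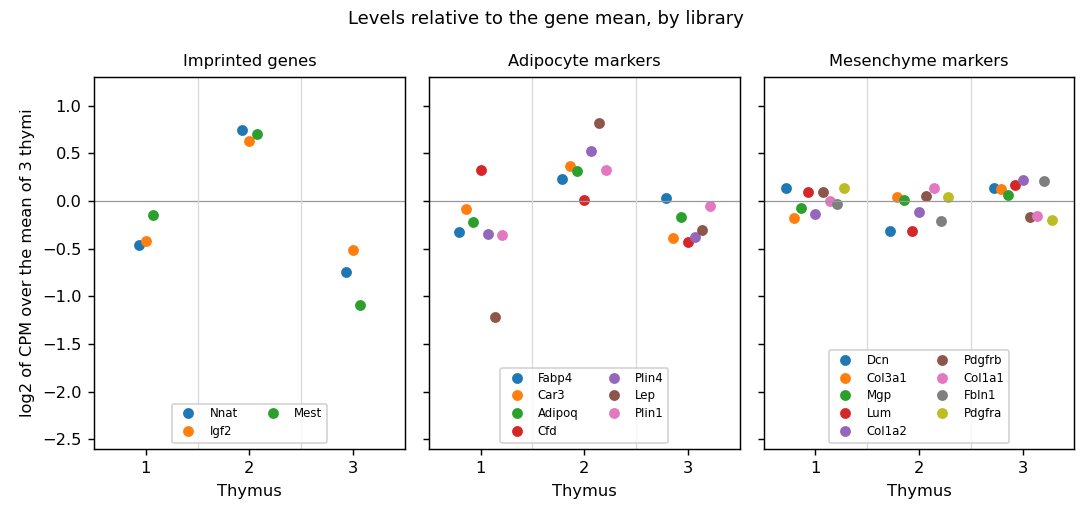
Level of each gene in thymus 1, 2 and 3 as log2 of its CPM over its mean, for Nnat, Igf2 and Mest, for the 7 adipocyte markers and for the 9 mesenchyme markers. The 3 imprinted genes and 6 of the 7 adipocyte markers are highest in thymus 2, and mesenchyme markers stay nearer to 0.

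Kcnq1ot1 and Ube3a had the reverse order, lowest in thymus 2 and highest in thymus 3. Their transcripts had a GC content of 40.3% and 38.2%, where the genes tested had a median of 49.8%. On the log2 scale Kcnq1ot1 deviated from its mean by −0.05, −0.26 and 0.32 in thymus 1, 2 and 3, and Ube3a by 0.06, −0.28 and 0.22. Genes within 2.5 percentage points of the GC content of Kcnq1ot1 deviated by medians of 0.02, −0.12 and 0.11, and those near Ube3a by 0.02, −0.15 and 0.13. The deviations of both genes thus had the sign of genes of like GC content in thymus 2 and 3 and were larger. H19 and Dlk1 had the same order of thymi at a GC content of 55.0% each, with H19 deviating by 0.04, −0.25 and 0.21 and Dlk1, on 11, 6 and 14 reads, by 0.01, −0.63 and 0.62. Genes of like GC content had medians of −0.02, 0.06 and −0.04 beside both, the opposite sign. Impact, Ndn and Ascl2 had this order of thymi too. Impact, with a GC content of 45.3%, deviated by 0.01, −0.06 and 0.05, against medians of 0.01, −0.04 and 0.03. Ndn, at 44.5%, deviated by −0.002, −0.35 and 0.35, against 0.01, −0.06 and 0.04. Ascl2, at 62.0% and on 6, 5 and 6 reads, deviated by −0.05, −0.19 and 0.25, against −0.03, 0.09 and −0.06. For Nnat, with a GC content of 59.4%, the deviations were −0.31, 0.89 and −0.58, against medians of −0.03, 0.08 and −0.05 for genes of like GC content. For Igf2 they were −0.32, 0.71 and −0.39, against −0.01, 0.05 and −0.04. The 5 proliferation markers, set here after their values were seen, summed to 2135, 2003 and 2538 CPM. All 5 were highest in thymus 3, where 37.9% of all genes tested were highest. Their median deviations were −0.07, −0.12 and 0.18 on the log2 scale. The part of GC content or of proliferation in these differences was not tested.

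Across the 34 genes thymus 3 was the lowest library for 20 (58.8%), ties included, as Usp29 had 0 reads in thymus 2 and thymus 3. It was the lowest for 39.7% of all genes tested. Only 25 of the 34 genes were tested, so these shares rest on unlike sets. The median deviation of the 25 imprinted genes tested from their mean was 0.041, 0.025 and −0.115 on the log2 scale, and over all 34 it was 0.017, 0.019 and −0.072, against 0.004 in thymus 2 and −0.002 in thymus 3 over all genes tested.

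Other imprinted genes and neighbours of imprinted domains were also counted. Of 51 such genes, listed with earlier results of these data known, 31 reached 1 CPM in every library and 20 stayed below it in every library. That level was reached by 26.9% of all genes and 58.4% of protein-coding genes, and 71.3% and 39.2% stayed below it. The highest were Ago2 at 377 ± 18.7 CPM, the Argonaute gene next to Trappc9, Nap1l4 at 236 ± 8.71, Atp10a at 152 ± 1.77, Cd81 at 106 ± 3.37, Dcn at 98.3 ± 16.7 and Herc3 at 96.0 ± 3.80. Of the 36 with enough counts, edgeR's quasi-likelihood test called 0, against 0.0604% of all genes. An unadjusted p under 0.05 was reached by 3 of them, against 4.42% of all genes. The negative binomial fit and DESeq2 called 0 each. The Poisson test called 21 of the 36, where it called 8 of the 25 imprinted genes above (32%) and 43.4% of all genes. Commd1, on the other strand at Zrsr1, stood at 31.6, 30.8 and 37.5 CPM.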

How the data were processed

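Libraries of 3 control thymi were made with a stranded mRNA kit, per the labels' protocols. The deposited files hold raw counts of reads for each gene, ignoring strand and for either strand, without normalisation. The submitters' processing notes name STAR 2.5.3a, DESeq2 and GRCm38. The sources used here do not state the annotation release. The reverse-strand counts were used, since they held most reads (66.4% to 69.1% of each library), and the 4 summary lines were left out. Of 52636 identifiers 52489 matched GENCODE M21.

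The 34 genes and all lists were chosen with earlier results of these data known. Named were all 34, the 6 highest of each further list of imprinted genes or factors, up to 3 of the highest per marker list described, genes of at least 1 CPM overlapping on the other strand, and 2 paralogs. Gm20721, Gm38393, Gm49394, Zfp57, Krt5, Aire and Foxn1 were named after their values were seen.

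Fits used R 4.3.3, edgeR 4.0.16 and DESeq2 1.42.0. Low counts were filtered with filterByExpr (minimum 10, total 15), leaving 16548 genes. For variability, each gene's quasi-dispersion from a robust intercept-only quasi-likelihood fit was set over its trend and referred to an F distribution (5.24 prior degrees of freedom). The test was one-sided, adjusted after Benjamini-Hochberg over the genes tested, and was checked on simulated data. Log2 values used a prior count of 2. Alternatives were other scalings, filters, priors and tests, the unstranded counts and each library left out.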

Additional observations from a re-analysis of the deposited data

How the results depend on the processing

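The count of imprinted genes called variable was 0, also with DESeq2 size factors, library totals, the unstranded column, a filter at a mean of 5 CPM and a prior that is not robust. It was 1 with no filter beyond 1 read, 1 by edgeR's negative binomial fit and 1 as an outlier of DESeq2's dispersions, Nnat each time, and between 0 and 1 when 1 library was left out. The count beyond counting noise, 8, lay between 5 and 9 when 1 library was left out, with 5 without thymus 2 and 5 without thymus 3, and between 6 and 9 under the other settings. The median level of 1.09 (log2 CPM) became −1.51 per kilobase of exon, because the gene length enters, and lay between 0.85 and 1.26 without 1 library. The count at 1 CPM or more, 20, lay between 19 and 21, and the count below 1 CPM, 11, between 11 and 12. Over all genes tested, the number called variable was 10, and 285 with no filter, 20 with library totals and 25, 23 and 137 without thymus 1, 2 and 3. Of single-gene levels, 195 of 204 moved by less than 1 SD. The 204 include means with 1 library left out. Such means can move little beside the SD of all 3 libraries, so the tally says little for them. Of the 9 levels that moved further, 6 were in the unstranded column, where Gnas fell to 16.6 CPM, against 442 CPM on its own strand. Among single genes, the Poisson call for Gnas (adjusted p = 0.128, edgeR) and that for H19 (0.0518) were lost in the unstranded column, and that for H19 also with library totals (0.0781). The cause of these moves was not tested. No paired analysis was possible because the samples form 1 group. Depth limits Mirg, Phlda2, Magel2 and Usp29, at or under 3 reads in every library.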

Other observations

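Factors that keep imprints were mostly abundant. Of 21 such genes, listed with earlier results of these data known, 13 exceeded 10 CPM in every library and 4 stayed below 1 CPM in every library. At 10 CPM or more in every library stood 18.2% of all genes and 42.3% of protein-coding genes. Below 1 CPM in every library stayed 71.3% and 39.2%. The highest were Ctcf at 344 ± 6.73 CPM, the insulator protein gene of the H19-Igf2 control region, Trim28 at 304 ± 1.75, the corepressor of KRAB zinc finger proteins, Zfp445 at 251 ± 12.1, Dnmt1 at 246 ± 6.56, the maintenance DNA methyltransferase gene, Ehmt2 at 187 ± 4.74 and Uhrf1 at 177 ± 12.1. Zfp57 was low, at 1.02, 0.7501 and 0.811 CPM, while Zfp445, which encodes the other zinc finger protein known to guard imprints, was at 255, 238 and 261 CPM. Of the 17 tested, edgeR's quasi-likelihood test called 0, with 0 at an unadjusted p under 0.05, and the negative binomial fit and DESeq2 called 0 each, while the Poisson test called 8, against 43.4% of all genes tested.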
